A study of Rattus norvegicus with 9 samples.

Results

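The genes described are the translation initiation factors of the rat, taken as every protein-coding row of the deposited count table whose name begins with Eif followed by a digit. The rule found 52 genes of 17949 protein-coding genes and 22324 genes in all, and all 52 passed the filter on low counts. The rule follows names, so it also takes in the kinases and binding proteins that act on the factors. The cells were primary rat nucleus pulposus cells, which come from the soft centre of the disc between vertebrae, of genotype WT, in 3 groups of 3 libraries. NC stands for untreated control cells, judging by the design text, although the doxorubicin protocol stands on every sample. SEN cells received doxorubicin, a drug that damages DNA, at 200 nM for 24 h and then grew for 6 more days in new medium. BNPMT cells carried the same doxorubicin-induced senescence plus an intervention named BNPMT, which the labels neither expand nor give a dose or time for. The labels do not say that replicates came from separate cultures or animals, so the spread behind each p-value is that of these 9 libraries and may be technical.

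Translation of most messenger RNAs begins when the cap-binding complex eIF4F, made of the cap-binding protein eIF4E, the scaffold eIF4G and the RNA helicase eIF4A, brings the transcript to a small ribosomal subunit that carries eIF3, eIF1, eIF1A, eIF5 and a ternary complex of eIF2, GTP and the initiator tRNA. The exchange factor eIF2B recharges eIF2 with GTP after each round. Stress kinases phosphorylate the alpha subunit of eIF2, which blocks eIF2B and lowers general translation while a few transcripts, among them that of the transcription factor Atf4, are translated more. The eIF4E-binding proteins hold eIF4E away from eIF4G until the kinase mTOR phosphorylates them. The data here are RNA levels and measure neither translation nor phosphorylation.

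Total counts per library ran from 31206834 to 41873790 over NC and SEN and from 35094282 to 41971877 in BNPMT. The 52 genes together took 1.03% to 1.05% of all counts in NC libraries, 1.15% to 1.17% in SEN and 1.06% to 1.11% in BNPMT. Their counts ran from 102 (Eif4e3, a cap-binding relative of Eif4e, in SEN 1) to 55534 (Eif4g2 in NC 3). Levels are given as CPM scaled by trimmed means of M-values (TMM), which is the read count of a gene relative to a library total corrected so that the bulk of genes does not shift. Changes are log2 changes on that scale, with adjusted p from edgeR's quasi-likelihood test (Benjamini-Hochberg over 14956 genes) and a threshold of 0.05. The scale matters in these libraries: over all 14956 genes the median log2 change from NC to SEN was -0.46 on total counts alone but -0.01 with TMM. The corresponding medians were 0.52 and 0.02 from SEN to BNPMT, and 0.06 and 0.00 from NC to BNPMT. The deviation of several libraries from their group also went with transcript length. The Spearman correlation across genes was -0.41 for SEN 1 and 0.50 for BNPMT 1, -0.43 to 0.26 for the other SEN and BNPMT libraries, and -0.20 to 0.15 in NC, with 0.02 in NC 2. The test was therefore also read with total counts and with each library's trend with length removed, written below as length-corrected. "Rose" and "fell" are written only of genes called in the same direction on all 3 scales, and "higher" or "lower" of calls on the TMM scale. In bulk RNA, fewer cells of a type and less RNA per cell cannot be told apart.

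Of 13 nucleus pulposus markers 12 were in the table. Col2a1 and Acan, of the cartilage-like matrix, were abundant in all groups but not at the same level, at 4571, 6492 and 1962 CPM for Col2a1 in NC, SEN and BNPMT, while the notochordal markers Tbxt, Krt18 and Krt19 were under 1 CPM in each group. Krt8 was at 4.16, 5.73 and 2.18 CPM in the same order, and Cd24 at 29.9, 47.2 and 42.2. Summed over the 12, the markers ran from 5325 to 5594 CPM in NC libraries, 7475 to 7611 in SEN and 2539 to 2759 in BNPMT. Col2a1 made up most of that sum. Pax1 (135, 52.7 and 149 CPM) and Foxf1 (30.6, 17.15 and 29.2) were lowest in SEN, where the sum was highest. Summed smooth muscle markers (4 genes) ran from 4429 to 4471 CPM over NC libraries, 1299 to 1467 over SEN and 2499 to 2745 over BNPMT. The 4 endothelial markers summed to 0.865 to 1.25, 4.67 to 5.16 and 0.909 to 1.31 CPM in the same order, with Pecam1 at 4.04 CPM in SEN and the defining gene Cdh5 at 2 counts in all libraries together. The 4 leukocyte markers in the table summed to 11.2 to 12.6, 25.4 to 29.2 and 16.3 to 18.4 CPM, with 1 count of Adgre1 in all. Among them Cd68 was at 0.464, 22.6 and 0.527 CPM and Cd14 at 11.4, 4.04 and 16.6. The part that these changes in markers had in the results was not tested.

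In SEN against NC, which asks what doxorubicin-induced senescence changed, 27 of the 52 genes were higher and 14 lower (median log2 change 0.16), while 11 missed the threshold. Over all 14956 genes 37.6% were called higher and 38.5% lower. On total counts the split of the 52 turned to 13 higher and 27 lower (median -0.29), beside 24.5% and 56.9% of all genes. Length-corrected, it was 31 and 14, beside 40.8% and 38.1%. On all 3 scales 13 genes rose and 13 fell, beside 24.5% and 36.3% of all genes, so that the share that rose was near the background. The genes that moved belong to different steps. Genes of start codon selection (Eif1, Eif1b and Eif5), the helicase gene Eif4a2, the cap-binding gene Eif4e and 5 subunit genes of eIF3 rose. All 5 genes of eIF2B, 3 of the 4 eIF2 kinase genes and the translational repressor gene Eif4ebp1 fell.

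**Figure D1:**
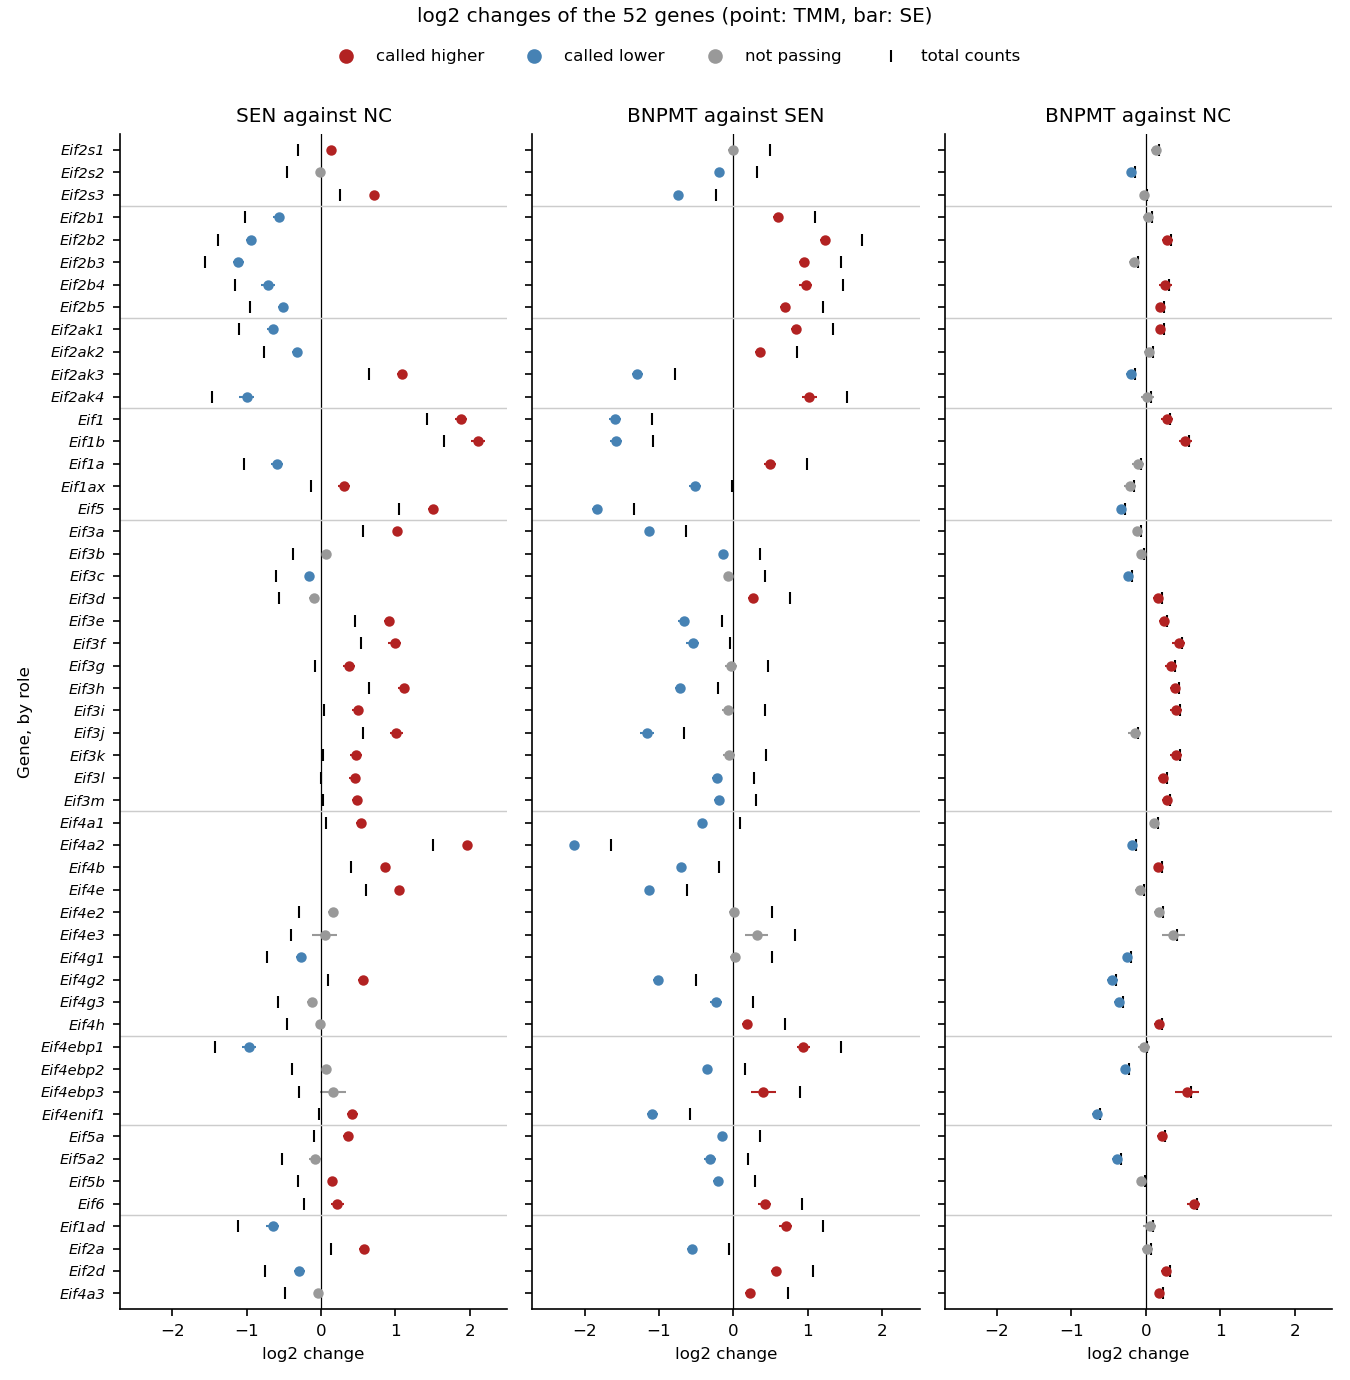
log2 changes of the 52 genes in the 3 comparisons, grouped by role, on the TMM scale (points, with the standard error as bars, coloured by the call) and with total counts (ticks). The eIF2B genes sit left of 0 in SEN against NC and right of 0 in BNPMT against SEN on both scales. In SEN against NC 5 eIF3 genes stay at 0.45 or more on both scales, and the others are near or below 0 with total counts.

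In BNPMT against SEN, which asks what the intervention changed in senescent cells, 17 genes were higher and 27 lower (median -0.15), while 8 missed the threshold. Over all genes 40.7% were higher and 39.9% lower. On total counts 34 were higher and 14 lower (median 0.36), beside 57.3% and 25.8% of all genes. Length-corrected, it was 15 and 31, beside 39.6% and 41.9%. On all 3 scales 13 rose and 14 fell, beside 36.4% and 25.7% of all genes. This comparison uses the same SEN libraries as SEN against NC, so the values of both are given side by side and their opposite signs are no separate evidence. In BNPMT against NC, which asks how far treated cells differed from untreated ones, 22 genes were higher, 11 lower and 19 did not pass (median 0.08), beside 26.3% and 26.5% of all genes. On total counts 26 were higher and 10 lower, beside 30.2% and 22.5%. By library values, 30 genes had all SEN libraries above all NC libraries and 14 had them below, beside 39.1% and 40.1% of all genes. BNPMT lay above SEN in 15 and below in 27 (40.4% and 39.7% of all genes), and above NC in 23 and below in 17 (30.9% and 31%). The log2 changes in BNPMT against NC, from -0.66 to 0.64, spanned less than the -1.11 to 2.11 of SEN against NC.

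**Figure D2:**
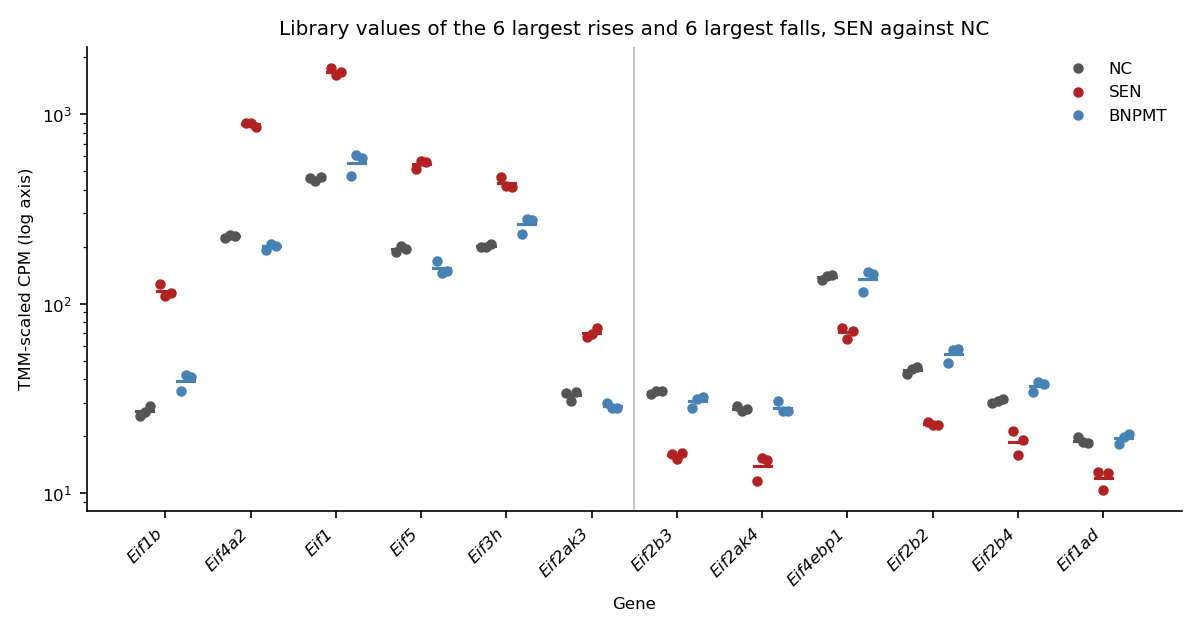
TMM-scaled CPM (log axis) in each library for the 6 genes with the largest rise and the 6 with the largest fall in SEN against NC, with the group mean as a bar. In all 12 genes the 3 SEN libraries lie apart from all NC and BNPMT libraries.

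The ternary complex genes changed unevenly. Eif2s3, which encodes the gamma subunit that binds GTP and the initiator tRNA, had, in TMM-scaled CPM, 236, 240.3 and 239 in the NC libraries, 405, 385 and 384 in those of SEN and 233, 234 and 234 in those of BNPMT. All SEN libraries were above all others, and BNPMT lay just below NC without overlap. Its log2 change was 0.71 ± 0.05 (SE, adjusted p = 7.49e-09) in SEN against NC, -0.74 in BNPMT against SEN and -0.03 in BNPMT against NC (adjusted p = 0.639). Eif2s1, the gene of the alpha subunit that the stress kinases phosphorylate, had 108, 115 and 113 in the NC libraries, 126, 124 and 119 in those of SEN and 114, 127 and 125 in those of BNPMT. Those SEN and BNPMT values overlapped, and the change from NC to SEN was small, at 0.14 ± 0.06 (SE, adjusted p = 0.0413). It turned to -0.31 with total counts, and the call ended in 8 of the 9 fits that left out 1 library. Eif2s2, of the beta subunit, did not pass in SEN against NC with TMM (-0.01 ± 0.06, adjusted p = 0.858) and was called lower with total counts at -0.46. It was lower in BNPMT than in NC at -0.20 ± 0.06 (adjusted p = 0.012).

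All 5 genes of eIF2B, the exchange factor of eIF2, fell in SEN on each of the 3 scales, beside 36.3% of all genes. The median log2 change of the 5 was -0.71 with TMM, -1.16 with total counts and -0.64 after length correction, beside -0.01, -0.46 and 0.03 over all genes. Their summed level was 206 ± 6.06 TMM-scaled CPM (SD, n = 3) in NC, 125 ± 6.55 in SEN and 228 ± 10.5 in BNPMT. Eif2b3, of the gamma subunit, had 33.5, 34.4 and 34.5 in the NC libraries, 16.0, 15.2 and 16.3 in those of SEN and 28.2, 31.4 and 32.3 in those of BNPMT, a log2 change of -1.11 ± 0.07 (SE, adjusted p = 7.29e-09) in SEN against NC. Eif2b2, of the beta subunit, had 42.6, 45.1 and 46.1 in the NC libraries, 23.8, 23.0 and 22.9 in those of SEN and 48.9, 56.9 and 57.5 in those of BNPMT, with a log2 change of -0.94 ± 0.07 (SE, adjusted p = 4.55e-08). The SEN values of both genes lay below every NC and BNPMT library. Eif2b4, of the delta subunit, had 29.9, 30.6 and 31.5 in the NC libraries, 21.2, 15.9 and 19.1 in those of SEN and 34.1, 38.8 and 37.6 in those of BNPMT, with a log2 change of -0.71 ± 0.09 (SE, adjusted p = 1.04e-05). Its SEN libraries were scattered, and did not overlap with the other groups. Eif2b1, of the regulatory alpha subunit, and Eif2b5, of the catalytic epsilon subunit, fell by 0.57 and 0.51 on the log2 scale.

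From SEN to BNPMT all 5 eIF2B genes rose, also on the 3 scales, by 0.60 (Eif2b1) to 1.23 (Eif2b2) with TMM. Over all genes 36.4% rose on the 3 scales. The median of the 5 was 0.95 with TMM, 1.45 with total counts and 0.65 after length correction. The medians over all genes were 0.02, 0.52 and -0.02. Against NC they differed little in BNPMT. Eif2b2, Eif2b4 and Eif2b5 were higher at 0.29, 0.26 and 0.19 (adjusted p = 0.00364, 0.0247 and 0.0254), and Eif2b1 and Eif2b3 did not pass. Over all genes 26.3% were higher and 26.5% lower there, and 23.2% and 22.7% after length correction. After length correction only Eif2b5 of these 5 was still higher (0.20), Eif2b2 was at -0.01, and Eif2b1 and Eif2b3 were lower at -0.26 and -0.41. The call of Eif2b4 also ended in 5 fits that left out 1 library of NC or BNPMT (adjusted p over all alternatives 0.000595 to 0.53). Set against the beta subunit of eIF2 within each library, a ratio that no library scale affects, Eif2b3 had 0.156, 0.149 and 0.154 counts per Eif2s2 count in the NC libraries, 0.0721, 0.0707 and 0.0718 in those of SEN and 0.157, 0.153 and 0.162 in those of BNPMT. The 2 transcripts are of similar length (1656 and 1602 bases), and the SEN ratios were all below the rest.

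The 4 kinases of the eIF2 alpha subunit respond to different stresses, and their genes did not move together. Eif2ak3, which encodes PERK, the kinase of endoplasmic reticulum stress, rose in SEN, with, in TMM-scaled CPM, 33.8, 30.7 and 34.3 in the NC libraries, 66.9, 69.4 and 74.2 in those of SEN and 29.8, 28.3 and 28.1 in those of BNPMT, and a log2 change of 1.09 ± 0.07 (SE, adjusted p = 3.09e-09). The SEN values lay above both other groups, at 2.13-fold the NC level. Eif2ak4, which encodes GCN2, the kinase that senses uncharged tRNA, fell, with 28.8, 27.2 and 27.8 in the NC libraries, 11.6, 15.4 and 14.9 in those of SEN and 30.5, 27.3 and 27 in those of BNPMT, a log2 change of -1.0 ± 0.10 (SE, adjusted p = 4.96e-07). Eif2ak1, of the heme-regulated kinase HRI, fell too, with 55.0, 52.7 and 49.5 in the NC libraries, 32.2, 33.1 and 34.8 in those of SEN and 60.9, 61.9 and 55.9 in those of BNPMT, a log2 change of -0.65 ± 0.07 (SE, adjusted p = 6.77e-07). Eif2ak2, of the double-stranded RNA kinase PKR, had 29.3, 27.7 and 28.3 in the NC libraries, 21.6, 22.9 and 23.8 in those of SEN and 29.3, 30.2 and 28.1 in those of BNPMT, a smaller log2 change of -0.32 ± 0.07 (SE, adjusted p = 0.000625). In none of the 4 genes did SEN overlap with NC or with BNPMT.

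The summed level of the 4 kinase genes was 142 ± 4.52 in NC and 140.3 ± 7.74 in SEN, in TMM-scaled CPM, a difference within the spread of the libraries on that scale. On total counts the means were 155 and 112 CPM. The make-up of the sum changed. The count ratio of Eif2ak3 to Eif2ak4 was 1.17, 1.13 and 1.23 in the NC libraries, 5.76, 4.50 and 4.98 in those of SEN and 0.977, 1.04 and 1.04 in those of BNPMT. In BNPMT against SEN the 4 genes changed by -1.29 (Eif2ak3), 1.02 (Eif2ak4), 0.84 (Eif2ak1) and 0.36 (Eif2ak2), each of them called on the 3 scales. Over all genes 36.4% rose and 25.7% fell on the 3 scales in that comparison. In BNPMT against NC, Eif2ak1 rose by 0.19 ± 0.06 (SE, adjusted p = 0.025). That call ended without BNPMT 2, NC 2 or NC 3 (adjusted p over all alternatives 0.00724 to 0.138). Eif2ak3 was lower there at -0.20 ± 0.07 (SE, adjusted p = 0.0233), which did not hold with total counts (-0.15) or after length correction (-0.04), nor without BNPMT 2, BNPMT 3, NC 1 or NC 3 (adjusted p over all alternatives 0.00369 to 0.561).

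Genes that are translated or transcribed more when eIF2 is phosphorylated, a list of 12, held 8 higher, 3 lower and 1 not passing in SEN against NC, with a median log2 change of 0.65. On total counts 6 were higher and 5 lower (median 0.20). The shares over all genes were 37.6% and 38.5% with TMM and 24.5% and 56.9% on total counts. Atf4, the transcription factor at the head of that response, had, in TMM-scaled CPM, 459, 466 and 477 in the NC libraries, 1434, 1269 and 1289.9 in those of SEN and 341, 412 and 392 in those of BNPMT, and rose by 1.51 ± 0.07 (SE, adjusted p = 2.71e-10). Ppp1r15a, which encodes GADD34, the phosphatase subunit that dephosphorylates eIF2, had 87.2, 85.2 and 88.0 in the NC libraries, 968, 878 and 918 in those of SEN and 67.7, 78.4 and 76.7 in those of BNPMT, and its change of 3.41 ± 0.07 (SE, adjusted p = 3.99e-14) was larger than that of any of the 52 genes. Ddit3, of the transcription factor CHOP, had 48.4, 47.4 and 48.1 in the NC libraries, 94.5, 76.6 and 76.4 in those of SEN and 46.5, 58.3 and 59.6 in those of BNPMT, and rose by 0.78 ± 0.10 (SE, adjusted p = 6.25e-06). Sesn2, a stress gene that restrains mTOR, rose from 64.6 ± 3.63 to 214 ± 9.17. Asns, of asparagine synthetase, and Trib3, a feedback gene, both targets of ATF4, went the other way, by -0.93 and -0.82. So the list's members did not move as one. From SEN to BNPMT the list held 1 higher and 9 lower with TMM (median -0.70) and 4 and 6 with total counts (median -0.19), beside 40.7% and 39.9% and then 57.3% and 25.8% of all genes. From NC to BNPMT it held 1 higher and 9 lower (median -0.35) and 2 and 9, beside 26.3% and 26.5% and then 30.2% and 22.5%. Trib3 and Sesn2 fell there by 1.17 and 1.13 on the log2 scale.

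Of the 4 largest rises among the 52, 3 were in factors that act at the start codon. Eif1, whose product keeps the ribosome scanning until it meets a good start codon, had, in TMM-scaled CPM, 460.3, 447 and 464 in the NC libraries, 1752, 1616 and 1666 in those of SEN and 472, 609.7 and 585 in those of BNPMT, a 3.67-fold rise in SEN against NC, with a log2 change of 1.88 ± 0.08 (SE, adjusted p = 9.46e-11). Its close relative Eif1b had 25.6, 26.9 and 29.0 in the NC libraries, 128, 109.6 and 114 in those of SEN and 34.6, 42.1 and 41.0 in those of BNPMT, a 4.30-fold rise, with a log2 change of 2.11 ± 0.09 (SE, adjusted p = 5.59e-11). Eif5, whose product triggers GTP hydrolysis by eIF2 at the start codon, had 187, 201 and 193 in the NC libraries, 516, 564 and 563 in those of SEN and 167, 145 and 149 in those of BNPMT, a 2.83-fold rise, with a log2 change of 1.5 ± 0.06 (SE, adjusted p = 9.46e-11). None of the 3 genes had an overlap between SEN and another group. With total counts the log2 changes were 1.42, 1.65 and 1.05. From SEN to BNPMT the 3 genes fell by 1.59, 1.58 and 1.83.

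Against NC these 3 genes differed in BNPMT cells by less. Eif5 fell by 0.33 on the log2 scale (SE 0.06, adjusted p = 0.000717) on all 3 scales. Eif1 and Eif1b were higher at 0.28 ± 0.08 and 0.53 ± 0.09 (adjusted p = 0.00861 and 0.000208), but after length correction Eif1 turned to -0.11 and Eif1b did not pass (0.09). Both transcripts are short, at 1074 and 882 bases.

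The genes of eIF1A, which works beside eIF1 in scanning, parted from these and from each other. Eif1a had, in TMM-scaled CPM, 178, 209 and 181 in the NC libraries, 119.7, 139 and 118 in those of SEN and 174, 183 and 171 in those of BNPMT, and fell in SEN by 0.59 (adjusted p = 8.18e-06). The X-linked Eif1ax had 182, 193 and 181 in the NC libraries, 210.2, 268 and 211 in those of SEN and 169, 161 and 150.3 in those of BNPMT, with a log2 change of 0.31 ± 0.08 (SE, adjusted p = 0.00442) that turned to -0.14 with total counts. Within libraries there were 0.977, 1.08 and 1.0 Eif1a counts per Eif1ax count in the NC libraries, 0.570, 0.520 and 0.557 in those of SEN and 1.03, 1.14 and 1.14 in those of BNPMT. The SEN ratios lay below the others with no overlap, between transcripts of 2992 and 3059 bases. Reads of such close relatives (Eif1 and Eif1b, Eif1a and Eif1ax, Eif4a1 and Eif4a2) can be split or lost in counting, so the share of each is uncertain.

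The genes of the 13 subunits of eIF3, the scaffold that holds the initiation complex on the small ribosomal subunit, fell into tiers. Eif3h, Eif3a, Eif3j, Eif3f and Eif3e rose in SEN, by 1.11, 1.02, 1.01, 0.99 and 0.91 on the TMM scale and by 0.65, 0.56, 0.56, 0.54 and 0.45 with total counts. Eif3i, Eif3m, Eif3k, Eif3l and Eif3g were higher with TMM at 0.37 to 0.49, but at -0.08 to 0.04 with total counts, where none of them passed. Eif3b, Eif3d and Eif3c were at 0.07, -0.10 and -0.16 with TMM, of which only Eif3c was called, and were called lower with total counts at -0.38, -0.56 and -0.61. The direction for eIF3 as a whole thus depended on the scale: 10 higher and 1 lower with TMM, 5 higher and 3 lower with total counts, 11 higher and 0 lower after length correction. Over all genes the shares were 37.6% and 38.5%, 24.5% and 56.9% and 40.8% and 38.1%. The tiers were set after the values were seen.

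**Figure D3:**
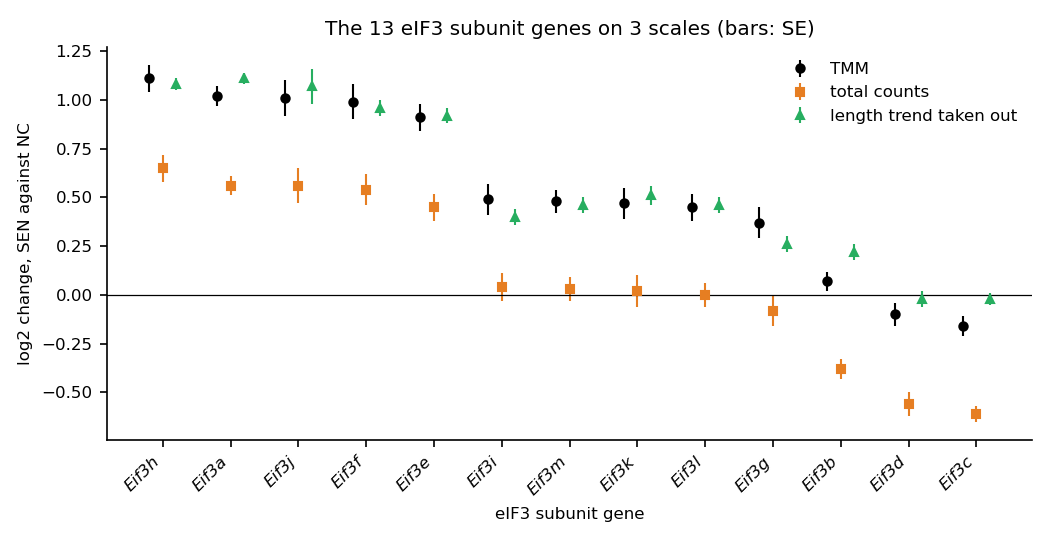
log2 change in SEN against NC of the 13 eIF3 subunit genes on 3 scales, with the standard error as bars. The 5 genes on the left stay above 0 on each scale, at 0.45 or more with total counts, whereas the order of the subunits is much the same on all of them.

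Ratios between subunits shifted from NC to SEN by more than their spread between libraries. Eif3h, of a subunit in the eIF3 core, had, in TMM-scaled CPM, 198, 199 and 206 in the NC libraries, 469, 416 and 415 in those of SEN and 234, 279 and 278 in those of BNPMT. Eif3a, of the largest subunit and core scaffold, had 346, 363 and 359 in the NC libraries, 701, 736 and 725 in those of SEN and 342, 312 and 326 in those of BNPMT, and Eif3c, its partner in the core, had 469.8, 470.0 and 469 in the NC libraries, 432, 412 and 416 in those of SEN and 397, 397 and 395 in those of BNPMT. In Eif3h and Eif3a the SEN libraries lay above all others, and in Eif3c they lay between NC and BNPMT, overlapping neither on this scale. The change of Eif3c from SEN to BNPMT did not pass with TMM (-0.08, adjusted p = 0.11). It was called higher with total counts at 0.42 and lower after length correction at -0.25. The count ratio of Eif3a to Eif3c was 0.736, 0.773 and 0.766 in the NC libraries, 1.62, 1.79 and 1.74 in those of SEN and 0.860, 0.786 and 0.825 in those of BNPMT. That of Eif3h to Eif3g, 2 short transcripts of 1260 and 1047 bases, was 1.56, 1.51 and 1.56 in the NC libraries, 2.51, 2.75 and 2.48 in those of SEN and 1.61, 1.56 and 1.62 in those of BNPMT. In both ratios SEN was above every other library. Per transcript length the subunit genes spanned 37.5 ± 2.43 (Eif3j, of a loosely bound subunit) to 175 ± 4.26 FPKM (Eif3h) in NC and 54.1 ± 2.74 (Eif3d) to 276 ± 18.2 (Eif3h) in SEN, with FPKM scaled to total counts by the authors.

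In BNPMT against NC 9 of the 13 eIF3 genes were higher and 1 lower, beside 26.3% and 26.5% of all genes, and after length correction 1 was higher and 2 lower, beside 23.2% and 22.7%. Eif3f had, in TMM-scaled CPM, 188, 186 and 195 in the NC libraries, 412, 352 and 366 in those of SEN and 219, 283 and 272 in those of BNPMT, with BNPMT between the other groups and BNPMT 1 the lowest of its group. Its log2 change of 0.44 ± 0.09 (SE, adjusted p = 0.000875) in BNPMT against NC shrank to 0.10 after length correction and did not pass. Eif3k rose there by 0.41 ± 0.08 (SE, adjusted p = 0.00109) and Eif3c fell by 0.24 (adjusted p = 0.00058), the only eIF3 genes called in 1 direction on all 3 scales in this comparison.

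The helicase genes of the cap complex differed sharply. Eif4a2 had, in TMM-scaled CPM, 223, 231 and 228 in the NC libraries, 901, 903 and 855 in those of SEN and 193, 208 and 201 in those of BNPMT, a 3.90-fold rise in SEN, with a log2 change of 1.96 ± 0.05 (SE, adjusted p = 5.69e-13). The near relative Eif4a1, the main form of the helicase in dividing cells, had 660.4, 685 and 696 in the NC libraries, 1029, 949.8 and 959.8 in those of SEN and 671, 766 and 766 in those of BNPMT, with a log2 change of 0.53 ± 0.06 (SE, adjusted p = 2.62e-06). With total counts Eif4a2 rose by 1.51 and Eif4a1 was at 0.07 and did not pass. Their transcripts are of nearly equal length, 2088 and 2039 bases, although reads of the pair can be split in counting. In NC Eif4a1 was at 366 ± 10.2 FPKM and Eif4a2 at 119 ± 2.09, and in SEN they were at 385 ± 14.7 and 340.4 ± 9.68. There were 0.337, 0.337 and 0.328 Eif4a2 counts per Eif4a1 count in the NC libraries, 0.876, 0.951 and 0.891 in those of SEN and 0.288, 0.271 and 0.262 in those of BNPMT. The SEN ratios lay above all others, and BNPMT lay below NC without overlap. Eif4a2 was the gene with the largest fall of the 52 in BNPMT against SEN, at -2.14 ± 0.05 (SE, adjusted p = 2.33e-13), and it also fell in BNPMT against NC by 0.18 (adjusted p = 0.0085).

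Eif4e, of the cap-binding protein itself, had, in TMM-scaled CPM, 89.2, 100.2 and 93.9 in the NC libraries, 201, 200.1 and 187 in those of SEN and 90.7, 91.3 and 86.4 in those of BNPMT, and rose in SEN by 1.05 ± 0.06 (SE, adjusted p = 1.29e-09), with 0.60 on total counts. NC and BNPMT overlapped (-0.08 ± 0.06, adjusted p = 0.278). Its relatives Eif4e2 and Eif4e3 did not pass in any of the 3 comparisons on the TMM scale. Eif4b, of a protein that stimulates the helicase, rose by 0.86 ± 0.05 in SEN and was a little above NC in BNPMT at 0.16 ± 0.05 (adjusted p = 0.0117), on all 3 scales. Eif4h, of a similar cofactor, was at -0.01 ± 0.06 in SEN with TMM (adjusted p = 0.899). It was called lower with total counts at -0.46 and higher after length correction at 0.11.

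Among the scaffold genes Eif4g1, of the main scaffold, had, in TMM-scaled CPM, 444, 428 and 434 in the NC libraries, 349.8, 361 and 374 in those of SEN and 398, 347 and 350.5 in those of BNPMT, and fell in SEN by 0.27 on the log2 scale (SE 0.06, adjusted p = 0.000914). On this scale SEN and BNPMT overlapped below NC. In BNPMT against NC Eif4g1 was lower at -0.25 with TMM but did not pass after length correction (-0.03). From SEN to BNPMT it was called higher with total counts (0.52) and after length correction (0.16). Eif4g2, which encodes DAP5, a scaffold that lacks the eIF4E-binding part, had 1248, 1249.9 and 1206 in the NC libraries, 1719, 1915 and 1813 in those of SEN and 999, 849 and 865 in those of BNPMT. It was higher in SEN at 0.56 ± 0.07 with TMM and at 0.10 with total counts, where it did not pass. In BNPMT it fell below both groups, by 0.45 against NC (adjusted p = 9.81e-05) on all 3 scales. Eif4g3, with the longest transcript of the 52 at 12861 bases, had 85.8, 82.0 and 84.7 in the NC libraries, 72.4, 75.8 and 83.3 in those of SEN and 72.7, 62.9 and 60.4 in those of BNPMT. Its change in BNPMT against NC was -0.36 ± 0.07 (SE, adjusted p = 0.00112) with TMM and 0.06 after length correction. The count ratio of Eif4g2 to Eif4g1 was 2.81, 2.92 and 2.78 in the NC libraries, 4.91, 5.31 and 4.85 in those of SEN and 2.51, 2.44 and 2.47 in those of BNPMT, so SEN was highest and BNPMT lowest without overlap.

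Among the 3 genes of eIF4E-binding proteins, Eif4ebp1 fell in SEN, while Eif4ebp2 and Eif4ebp3 missed the threshold on the TMM scale. Eif4ebp1, of the best-known eIF4E-binding protein, had, in TMM-scaled CPM, 133, 139.9 and 142 in the NC libraries, 74.2, 65.4 and 72.0 in those of SEN and 115, 146 and 144 in those of BNPMT, and fell in SEN by 0.97 on the log2 scale (SE 0.09, adjusted p = 1.64e-07), to 70.5 ± 4.59 from 138 ± 4.78 (SD, n = 3). The SEN libraries lay below all others, and NC and BNPMT overlapped. In BNPMT against NC Eif4ebp1 did not pass with TMM (-0.03 ± 0.08, adjusted p = 0.77). After length correction it was called lower there at -0.48 (adjusted p = 2.89e-07). Eif4ebp2, of a second binding protein, had 119, 115 and 122 in the NC libraries, 123, 123 and 126 in those of SEN and 104, 94.4 and 93.5 in those of BNPMT and did not pass in SEN against NC (0.06 ± 0.06, adjusted p = 0.315), though with total counts it was called lower at -0.39. Eif4ebp3, the least abundant of the 3 at 9.65 ± 0.0393 FPKM in NC against 179 ± 6.32 for Eif4ebp1, had, in TMM-scaled CPM, 6.58, 6.54 and 6.51 in the NC libraries, 6.90, 7.33 and 7.70 in those of SEN and 6.65, 11.7 and 10.6 in those of BNPMT. BNPMT 1 lay next to NC, apart from the other 2 BNPMT libraries. The call of Eif4ebp3 in BNPMT against NC, with a log2 change of 0.55 ± 0.16 (SE, adjusted p = 0.0116), ended without BNPMT 2, without BNPMT 3 and after length correction (0.06), with an adjusted p over all alternatives of 4.92e-06 to 0.751.

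Set against Eif4e within each library, there were 1.49, 1.40 and 1.51 Eif4ebp1 counts per Eif4e count in the NC libraries, 0.370, 0.327 and 0.384 in those of SEN and 1.27, 1.60 and 1.66 in those of BNPMT. The log2 difference of this ratio between SEN and NC was -2.03, and NC and BNPMT overlapped. The 2 transcripts differ in length (846 and 3268 bases), and BNPMT 1, whose deviation went with length, had the lowest BNPMT ratio. Eif4enif1, which encodes the eIF4E transporter that carries eIF4E to the nucleus and to RNA-protein granules, had, in TMM-scaled CPM, 53.0, 50.4 and 50 in the NC libraries, 65.1, 68.4 and 72.2 in those of SEN and 34.6, 31.9 and 30.3 in those of BNPMT. Its BNPMT libraries lay below all NC and SEN libraries. It had the largest fall of the 52 in BNPMT against NC, by 0.66 (SE 0.07, adjusted p = 4.75e-06), with -0.61 on total counts and -0.50 after length correction. In SEN against NC its change of 0.42 turned to -0.03 with total counts.

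**Figure D4:**
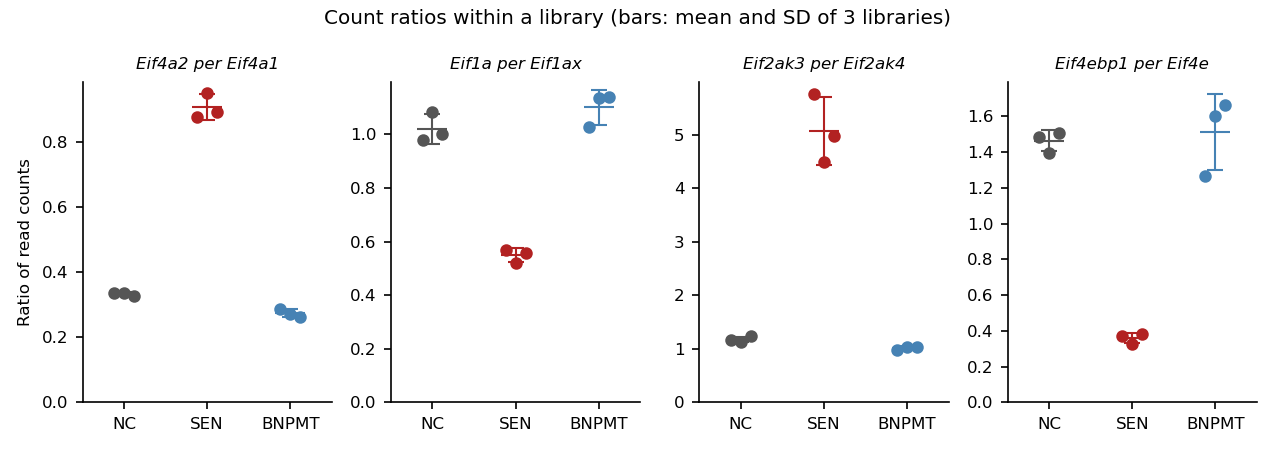
Ratios of read counts of 2 genes within each library, with points for the 3 libraries of a group and bars for the mean and SD. In all 4 panels the SEN libraries stand apart, at 0.876 to 0.951 Eif4a2 per Eif4a1 and 0.327 to 0.384 Eif4ebp1 per Eif4e.

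The 9 ratios given in the text were chosen after their values were seen, and each was compared over the 3 pairs of groups. An exact two-sided permutation test of log2 ratios gave p = 0.1 for all 9 in SEN against NC, the smallest p that 3 libraries against 3 allow, and 0.123 after adjustment over the 27 comparisons. This test therefore cannot bring a ratio under 0.05 with 3 libraries against 3. The ninth, Eif1 per Eif1b, was 17.9, 16.6 and 16.0 in the NC libraries, 13.7, 14.7 and 14.6 in those of SEN and 13.6, 14.5 and 14.3 in those of BNPMT, so that SEN and BNPMT overlapped below NC.

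Genes around mTORC1, the mTOR complex that controls the binding proteins, formed a list of 12. It pools activators, inhibitors and Rictor, of the other mTOR complex, so its counts give no direction for the activity of mTORC1. In SEN against NC it gave 6 higher and 5 lower (median 0.12), beside 37.6% and 38.5% of all genes. With total counts it gave 2 higher and 9 lower, beside 24.5% and 56.9% of all genes. Mtor, the kinase itself, fell by 1.48 and Mlst8, of a subunit of the complex, by 1.66, whereas Rheb, the GTPase that activates the complex, rose by 1.66 on the log2 scale. From SEN to BNPMT the split was 3 higher and 5 lower with TMM and turned to 9 and 2 with total counts, beside 40.7% and 39.9% and then 57.3% and 25.8% of all genes. From NC to BNPMT it was 2 and 5 with TMM and 4 and 3 with total counts, beside 26.3% and 26.5% and then 30.2% and 22.5%.

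RefSeq promoter windows on build GRCr8, from 250 bases before to 50 after the start of each gene, were matched for 47 of the 52 genes by gene number. The unmatched genes were Eif3e, Eif3h, Eif4b, Eif4e3 and Eif4ebp1. The letters CACGTG, the E-box that MYC and related factors bind and that reads the same on both strands, stood in the windows of 9 genes (19.1% of 47; 18% of their 50 windows), beside 6.42% of all 33469 windows of the table. The 9 were Eif1b, Eif3a, Eif3b, Eif3f, Eif4e, Eif4g1, Eif4h, Eif5a and Eif5a2. Of these Eif1b, Eif3a, Eif3f and Eif4e rose in SEN, Eif4g1 fell, and the other 4 were not called in 1 direction on all 3 scales. The letters TGATGNAA, the element of ATF4 and its C/EBP partners, searched on both strands with no overlap with the E-box, stood in the windows of Eif2s2 and Eif3g (4.26% of 47 genes) and in 3.98% of all windows. A match is a description of these letters only. The windows of 3 genes that rose and 1 that fell are printed as examples. They run 5′ to 3′ on the strand of the gene, with each E-box in capitals.
Eif4e (chr2:229740503-229740802, plus strand): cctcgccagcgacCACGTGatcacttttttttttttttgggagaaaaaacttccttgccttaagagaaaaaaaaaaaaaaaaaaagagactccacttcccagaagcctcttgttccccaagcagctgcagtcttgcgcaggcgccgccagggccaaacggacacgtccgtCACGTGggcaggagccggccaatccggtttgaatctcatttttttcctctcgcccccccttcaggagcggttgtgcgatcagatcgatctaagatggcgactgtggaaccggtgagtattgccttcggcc
Eif3a (chr1:269918976-269919275, minus strand): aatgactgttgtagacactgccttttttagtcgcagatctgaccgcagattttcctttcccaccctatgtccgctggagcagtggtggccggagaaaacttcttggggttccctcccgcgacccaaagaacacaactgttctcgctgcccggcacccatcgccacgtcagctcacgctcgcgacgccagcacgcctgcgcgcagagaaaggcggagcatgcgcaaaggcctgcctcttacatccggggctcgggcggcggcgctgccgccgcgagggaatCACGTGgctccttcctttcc
Eif3f (chr1:172368812-172369111, plus strand): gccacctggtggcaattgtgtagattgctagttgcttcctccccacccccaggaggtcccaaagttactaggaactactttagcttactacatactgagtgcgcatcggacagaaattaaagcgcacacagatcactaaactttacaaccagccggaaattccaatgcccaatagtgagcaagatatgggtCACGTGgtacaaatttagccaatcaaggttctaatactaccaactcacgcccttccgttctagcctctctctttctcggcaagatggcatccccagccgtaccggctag
Eif4g1 (chr11:93746318-93746617, minus strand): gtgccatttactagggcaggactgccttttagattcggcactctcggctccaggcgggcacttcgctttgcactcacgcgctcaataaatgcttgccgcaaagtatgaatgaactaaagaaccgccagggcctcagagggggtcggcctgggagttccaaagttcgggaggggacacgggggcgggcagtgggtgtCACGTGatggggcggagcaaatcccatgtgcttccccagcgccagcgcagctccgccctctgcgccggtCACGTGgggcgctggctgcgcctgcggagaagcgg
Eif4e and Eif4g1 each held 2 E-boxes. Relative to the start of the gene, those of Eif4e began at bases -237 and -80, and those of Eif4g1 at -54 and 15. The single E-box began at -59 in Eif3f and at 30, inside the transcript, in Eif3a. Eif4e and Eif4g1, both with 2 E-boxes, changed in opposite directions in SEN. The E-box of Eif1b, which rose and is not printed, began at -54, as did 1 of those of Eif4g1, which fell.

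Factors of the later steps changed modestly. Eif5a, of the hypusine-carrying factor that helps ribosomes through difficult peptide bonds, had the highest level per length of the 52 in NC at 519 ± 5.26 FPKM. It had, in TMM-scaled CPM, 795, 792 and 804 in the NC libraries, 1089, 992 and 991 in those of SEN and 839.9, 985 and 949 in those of BNPMT, with a change in SEN of 0.36 ± 0.06 with TMM and -0.09 with total counts. Eif5a2, a relative amplified in some tumours, stood at 4.38 ± 0.0345 FPKM in NC. In SEN against NC Eif5a2 did not pass with TMM (-0.08 ± 0.08, adjusted p = 0.365) and was called lower with total counts at -0.53. It had, in TMM-scaled CPM, 22.4, 22.3 and 22.5 in the NC libraries, 20.8, 20.4 and 22.5 in those of SEN and 17.3, 15.6 and 18.1 in those of BNPMT, with BNPMT below both groups on that scale, and fell in BNPMT against NC by 0.39 (adjusted p = 0.000674). In BNPMT against SEN Eif5a2 was lower at -0.32 with TMM but was called higher with total counts at 0.19. Eif5b, of the GTPase that joins the ribosomal subunits, was at 0.15 ± 0.06 in SEN (adjusted p = 0.0398) and turned to -0.31 with total counts.

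Eif6, whose product keeps the large ribosomal subunit from joining too early, set BNPMT apart from both other groups. It had, in TMM-scaled CPM, 85.8, 84.2 and 84.9 in the NC libraries, 109, 93.8 and 95.2 in those of SEN and 113, 145 and 139.9 in those of BNPMT, so that every BNPMT library was above every NC and SEN library. It was the largest rise of the 52 in BNPMT against NC, at 0.64 ± 0.09 (SE, adjusted p = 4.71e-05), with 0.69 on total counts and 0.32 after length correction. From SEN to BNPMT it rose by 0.42 ± 0.09 (SE, adjusted p = 0.000458), with 0.92 on total counts and 0.11 after length correction (adjusted p over all alternatives 2.45e-09 to 0.047). In SEN against NC its change was 0.22 with TMM (adjusted p = 0.0287) and -0.23 with total counts. Without BNPMT 1, the lowest of its group, the log2 change against NC was 0.74.

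Of the remaining 4 genes Eif1ad, of an eIF1A-like protein, had, in TMM-scaled CPM, 19.9, 18.5 and 18.5 in the NC libraries, 12.9, 10.4 and 12.8 in those of SEN and 18.3, 19.8 and 20.6 in those of BNPMT, and fell in SEN by 0.65 (adjusted p = 2.14e-05), with the SEN libraries below all others. Eif2d, of a factor of non-canonical initiation and recycling, fell by 0.29 (adjusted p = 0.0018). Eif2a, of another factor of alternative initiation and not a subunit of eIF2, was higher at 0.58 ± 0.07 with TMM and at 0.13 with total counts. Eif4a3, a helicase of the exon junction complex, did not pass with TMM (-0.04 ± 0.06, adjusted p = 0.509) and was called lower with total counts at -0.49.

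Partners of initiation without an Eif name gave 6 higher and 6 lower of 14 in SEN against NC with TMM and 5 and 8 with total counts, where all genes gave 37.6% and 38.5% and 24.5% and 56.9%. Mknk2, of a kinase that phosphorylates eIF4E, rose from 92.3 ± 2.78 to 414 ± 9.61 TMM-scaled CPM, while Mknk1, of the other such kinase, fell from 24.0 ± 0.444 to 14.6 ± 0.633 (SD, n = 3). Pabpc1, of the poly(A)-binding protein that eIF4G holds, rose by 1.36 ± 0.05, and Paip2, of its inhibitor, by 1.59 ± 0.08. Of 10 genes with an elongation factor name, not all of which encode such a factor, 7 were higher and 3 lower. With total counts the split was 4 and 4. The higher ones included Eef1a1 at 1.14 ± 0.05 and Eef2 at 1.21 ± 0.05. The lower ones were Eef1e1 (-0.51), Eefsec (-0.93) and Eef2kmt (-1.76), of which only Eefsec encodes an elongation factor. Of 6 genes of termination and recycling 2 higher and 1 lower were called with TMM and 2 and 4 with total counts, with Etf1, the release factor gene, at 1.78 ± 0.05 on the TMM scale. In BNPMT against NC the counts with TMM were 5 higher and 5 lower for the partners, 3 and 1 for elongation and 2 and 3 for termination, beside 26.3% and 26.5% of all genes. With total counts they were 6 and 3, 4 and 1 and 3 and 1, beside 30.2% and 22.5%.

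In BNPMT against NC the changes of the 52 genes went with transcript length. The Spearman correlation of log2 change with length was -0.73 across the 52 genes and -0.48 across all 14956, as a description of genes that share the same libraries. In SEN against NC it was -0.13 and -0.03. After length correction the count in BNPMT against NC went from 22 higher and 11 lower to 7 higher and 15 lower, beside 23.2% and 22.7% of all genes. On all 3 scales Eif2ak1, Eif2b5, Eif3k, Eif4b and Eif6 rose and Eif2s2, Eif3c, Eif4a2, Eif4enif1, Eif4g2, Eif5 and Eif5a2 fell, beside 16.9% and 16.6% of all genes. The count of higher genes also fell to 11 without BNPMT 2, to 12 without BNPMT 3 and to 14 without NC 2, and without BNPMT 1 it was 25.

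**Figure D5:**
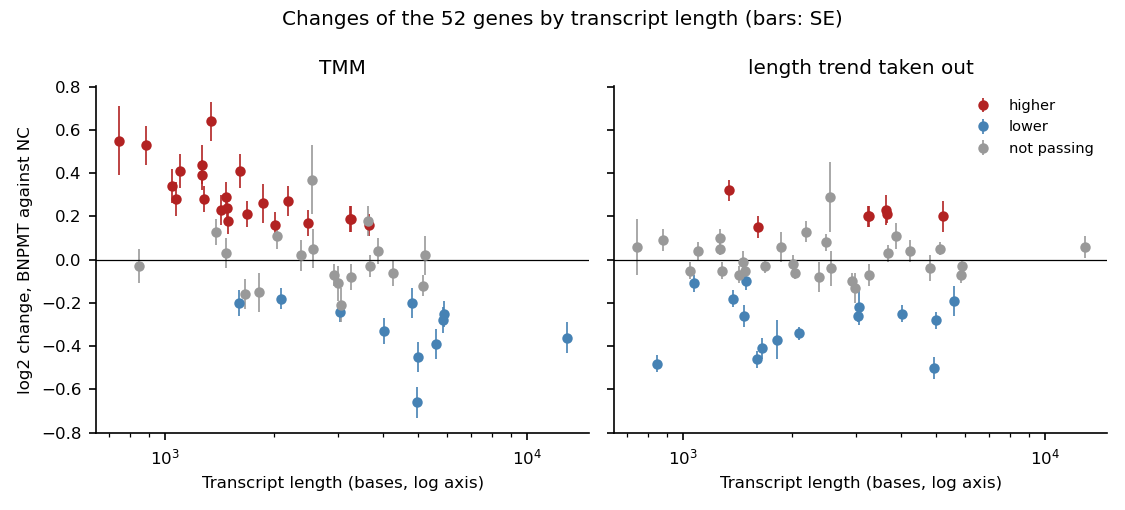
log2 change in BNPMT against NC of the 52 genes by transcript length (log axis), on the TMM scale and after length correction, with the standard error as bars and the call as colour. On the left short transcripts lie mostly above 0 and long ones below, and on the right Eif6 at 0.32 is the highest of the called genes.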

How the data were processed

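RNA (polyA) of 9 libraries was sequenced. Per the submitters' processing notes the authors used fastp, HISAT2, HTSeq and build mRatBN7.2; their versions, the annotation and strandedness are not stated, so overlapping and antisense genes cannot be told apart. The authors deposited whole-number counts per gene and FPKM values; FPKM equals the count over gene length and library total (largest relative spread 1.76e-13), which gave the lengths. Counts were fitted with edgeR 4.0.16 in R 4.3.3 (filterByExpr, 14956 genes; TMM; 1 layout of 3 groups over 9 libraries; quasi-likelihood test). The SE is the log2 change over the root of F. Alternatives used DESeq2 1.42.0, limma 3.58.1 on log2(FPKM + 1) and log2(FPKM + 0.1), which understates changes of low genes, and those in the closing section. The fit was tested on simulated data with as many rises as falls and no trend with length. That test does not bear on the choice of scale. Libraries were no duplicates (chi-square per degree of freedom 3.52 to 33.6).

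Library values are given for the 6 largest rises and falls in SEN against NC, the 4 largest in BNPMT against NC (adjusted p below 0.05, mean of at least 5 CPM) and 15 fixed genes; others are named with their complex or list. Genes, lists and alternatives were chosen with earlier results of these data known. Protein identity between members, planned, was not analysed here.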

Additional observations from a re-analysis of the deposited data

How the results depend on the processing

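The edgeR counts and 81 changes of named genes (27 genes, 3 comparisons) were recomputed under 20 alternatives. Of 1620 values for genes, 1449 kept direction and side of the threshold, 77 lost the call, 28 gained one and 66 changed sign. The causes were not tested beyond what each alternative changes by its construction. Leaving out 1 library at a time gave 24 to 28 higher and 14 to 16 lower in SEN against NC (median 0.15 to 0.17), 15 to 17 and 24 to 26 in BNPMT against SEN (median -0.17 to -0.10), and 11 to 25 and 10 to 13 in BNPMT against NC (median 0.06 to 0.13). With total counts and with limma on log2(FPKM + 1) and log2(FPKM + 0.1), SEN against NC gave 13 higher and 27 lower on each (medians -0.29, -0.25 and -0.29), and BNPMT against SEN gave 34, 33 and 33 higher and 14 lower on each (medians 0.36, 0.35 and 0.36). The SEN against NC median was 0.22 with DESeq2 size factors and with the Wald test of DESeq2, 0.20 with at least 1 CPM in 3 libraries, 0.10 with no filter and 0.24 with the length trend taken out. With the length trend taken out BNPMT against NC had 7 higher and a median of -0.04. Without SEN 1 and BNPMT 1 together the counts were 28 higher and 15 lower, 20 and 24, and 25 and 14. Signs changed as follows. With total counts, log2 changes were in SEN against NC Eif2s1 -0.31, Eif4ebp2 -0.39, Eif4ebp3 -0.29, Eif4enif1 -0.03, Eif5a -0.09, Eif6 -0.23, and in BNPMT against SEN Eif2s1 0.49, Eif4a1 0.09, Eif4ebp2 0.16, Eif4g3 0.26, Eif5a 0.36, Eif5a2 0.19, and in BNPMT against NC Eif4ebp1 0.02. With log2(FPKM + 1), log2 changes were in SEN against NC Eif2s1 -0.31, Eif4ebp2 -0.37, Eif4ebp3 -0.26, Eif4enif1 -0.03, Eif5a -0.09, Eif6 -0.23, and in BNPMT against SEN Eif2s1 0.49, Eif4a1 0.08, Eif4ebp2 0.15, Eif4g3 0.22, Eif5a 0.35, Eif5a2 0.14, and in BNPMT against NC Eif4ebp1 0.01. With log2(FPKM + 0.1), log2 changes were in SEN against NC Eif2s1 -0.31, Eif4ebp2 -0.39, Eif4ebp3 -0.29, Eif4enif1 -0.03, Eif5a -0.09, Eif6 -0.23, and in BNPMT against SEN Eif2s1 0.49, Eif4a1 0.09, Eif4ebp2 0.15, Eif4g3 0.26, Eif5a 0.35, Eif5a2 0.18, and in BNPMT against NC Eif4ebp1 0.01. With the length trend taken out, log2 changes were in SEN against NC Eif4ebp3 -0.09, Eif5a2 0.00, and in BNPMT against SEN Eif4g3 0.24, and in BNPMT against NC Eif1 -0.11, Eif1ad -0.04, Eif2b2 -0.01, Eif2s1 -0.18, Eif4a1 -0.06, Eif4g3 0.06, Eif5a -0.03. With DESeq2 size factors, log2 changes were in BNPMT against SEN Eif4g1 -0.05. With the Wald test of DESeq2, log2 changes were in BNPMT against SEN Eif4g1 -0.05. With at least 1 CPM in 3 libraries, log2 changes were in BNPMT against SEN Eif4g1 -0.02. With no filter, log2 changes were in BNPMT against SEN Eif2s1 0.05. Without SEN 1 and BNPMT 1 together, log2 changes were in BNPMT against SEN Eif2s1 0.06, Eif4g1 -0.07, and in BNPMT against NC Eif2ak4 -0.05, Eif4ebp1 0.06. Ranges that crossed 0 when 1 library was left out were Eif2ak4 in BNPMT against NC -0.04 to 0.05, Eif2s1 in BNPMT against SEN -0.03 to 0.05, Eif4ebp1 in BNPMT against NC -0.10 to 0.07, Eif4g1 in BNPMT against SEN -0.04 to 0.06. Replicate numbers did not pair the libraries: deviations of same-numbered libraries correlated at -0.21 to 0.05. With a replicate block the counts were 24 higher and 14 lower, 17 and 26, and 20 and 12. All 162 log2 differences of the 9 count ratios without 1 library, added after seeing the data, stayed within 1 SD. With 3 libraries a group leaving 1 out cannot move a mean by 1 SD, so that outcome was fixed and says nothing about stability. Depth limited only genes such as Eif4e3 and Eif4ebp3, with counts of 102 to 265 and 184 to 506.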
